A study of Mus musculus with 2 samples.

Results

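Nono and 5 partner genes of the paraspeckle (Sfpq, Pspc1, Matr3, Cpsf6 and Nudt21) were followed in mouse morulae with and without knockdown of Nat10. These 6 genes were chosen by symbol, all 6 were found among the 12836 genes of the deposited table, and all 6 passed the filter on low values. Earlier results of these data were known when the set was drawn up, and the low value of Nono was among them, so the ratios below are a description and no test was made on them. RNA came from morulae of the ICR strain. In 1 library they had received double-stranded RNA matching Nat10 (dsNat10), and in the other, the control, double-stranded RNA matching GFP (dsGFP), which mice do not carry. Both groups are therefore injected embryos with no other allele or agent in the labels, the design text speaks of 50 morulae, and the embryos of a library were pooled. With 1 library per group, no difference has a replicate check, and the intervals given are 95% intervals for counting error only.

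Paraspeckles are nuclear bodies that form on the long non-coding RNA Neat1 and hold back certain proteins and RNAs. Nono, Sfpq and Pspc1 are the DBHS family, RNA-binding proteins that pair with each other, and Nono and Sfpq are needed to build the body. Cpsf6 and Nudt21 belong to cleavage factor Im, which binds nascent RNA and guides the choice of poly(A) site, including the one inside Neat1. Matr3 is an RNA-binding protein of the nuclear matrix that has been found with Nono and Sfpq on RNA edited to inosine. In the early mouse embryo, paraspeckles and the arginine methyltransferase Carm1 have been tied to the first choices of cell fate. Neat1 itself was not analysed here.

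Nat10 writes N4-acetylcytidine on RNA, and in mRNA the mark has been reported more often in coding sequences and in repeats of the form CNN, a C followed by any 2 bases. The deposited files hold no acetylation values, so the sequences below show only the letters. Runs of CNN are shown because both abundant DBHS genes had one of the longest among 8475 genes with a coding sequence. Each sequence is the longest run in the coding sequence of the GENCODE M21 transcript (GRCm38), with 6 bases on either side, and capitals mark the C that opens each triplet. Runs were sought in any reading frame, so the triplets need not be codons, and those of Pspc1 are not. For Nono the run lies in exon 3 (chrX:101437266-101437349, plus strand), for Sfpq in exon 1 (chr4:127021576-127021725, plus strand), for Pspc1 in exon 1 (chr14:56777997-56778029, minus strand) and for Cpsf6 in exon 7 (chr10:117361107-117361136, minus strand).
Nono: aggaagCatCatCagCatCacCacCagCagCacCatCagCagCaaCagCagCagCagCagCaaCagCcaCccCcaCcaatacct
Sfpq: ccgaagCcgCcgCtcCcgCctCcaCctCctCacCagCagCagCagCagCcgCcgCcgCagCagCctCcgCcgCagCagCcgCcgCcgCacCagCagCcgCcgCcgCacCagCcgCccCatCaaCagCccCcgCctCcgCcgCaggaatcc
Pspc1: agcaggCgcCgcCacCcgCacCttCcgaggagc
Cpsf6: ccaggtCcaCcgCctCcaCagCagggacca

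The run of Nono held 24 triplets, a length that 0.437% of the genes reached, and that of Sfpq held 46, reached by 0.0590%. The run of Pspc1 held 7 triplets, that of Cpsf6 held 6, and those of Nudt21 and Matr3 held 5 each, against a median of 6 over all genes.

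The target of the injected RNA was lower in the dsNat10 library, with 37 reads of Nat10 against 886. Nop2, the gene of the study's title, had 5787 reads against 8365. Estimated reads over all genes summed to 28303119 in dsNat10 and 29139232 in dsGFP. Of 8 markers of the preimplantation embryo, all 8 were in the table, with a summed level of 18053 TPM (transcripts per 1000000, a unit that divides by gene length) in dsNat10 and 17154 TPM in dsGFP. Most of that sum was Dppa5a, with 15850 and 14236 TPM and fractional counts, and the other 7 genes summed to 2203 and 2918 TPM. The list's median log2 ratio was -0.46. By the size rule defined below, 3 of its 8 genes (Krt8, Tead4 and Nanog) were lower, against 15.3% of all genes. All but Tead4 averaged at least 100 CPM (a unit also defined below), a class in which 2.55% of genes were lower. Gata3, Krt18, Pou5f1, Tfap2c and Dppa5a were not called. Genes listed as markers of other cells were looked up too. Of 6 for cumulus cells, 1 was in the table (Amhr2, 23.9 and 26.9 TPM). Of 7 for blood and fibroblasts, Ptprc, Hbb-bs and Col1a2 were not in the table and 4 were (71.9 and 60.1 TPM in sum). Among the latter, Col1a1 had 0 and 9 reads, Vim 256 and 94, Pecam1 1879 and 1036, and Cd68 673 and 880, and Vim was higher by the size rule. By TPM, Amhr2, Pecam1 (31.1 and 16.45) and Cd68 (32.7 and 40.7) stood above Pspc1 in both libraries. Whether their reads came from other cells or from the embryo was not tested, nor was their part in the results below.

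Nono was the gene of the set that stood apart. It had 2538 reads in dsNat10 and 8662 in dsGFP, or 88.8 and 300.1 CPM (reads per 1000000 after TMM scaling). The dsNat10 level was 3.38-fold lower (3.23 to 3.53), with 29.6% of the dsGFP level remaining (28.3% to 30.9%). Nono (Entrez gene 53610) lies on chromosome X of GRCm38, from 101429560 to 101448593, and no other gene of the GENCODE annotation overlaps it. All its deposited counts, like those of the other 5 genes, were whole numbers, so no reads were visibly shared out with a near-identical copy. In pooled embryos, fewer cells of a type and less RNA per cell cannot be told apart.

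The size rule used here asks for a mean of at least 5 CPM, a log2 ratio of CPM + 1 of 1 or beyond in either direction, and a counting interval that leaves out equality. By this rule 1 of the 6 genes, Nono, was lower (log2 ratio -1.74) and 0 were higher. Over the 8738 genes that passed the filter, 15.3% were lower and 15.2% higher, so 1 of 6 is near the background and says nothing about the set. Calls were rare among abundant genes: of 2114 genes averaging at least 100 CPM, 2.55% were lower and 2.32% higher. Within that class, 3 genes including Nono were as low as Nono (0.142%), and the other 2, Plp2 and Rbpj, have fractional counts that make their values uncertain. All 6 genes had a log2 ratio below 0, against 49.5% of the genes that passed the filter, and their median was -0.33 against 0.01. Nono, Matr3 and Cpsf6 averaged at least 100 CPM, a class in which 54.7% of genes lay below 0. At a log2 limit of 0.5 in place of 1, Nono and Pspc1 were lower, 2 of 6 against 26.5% of all genes.

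**Figure D1:**
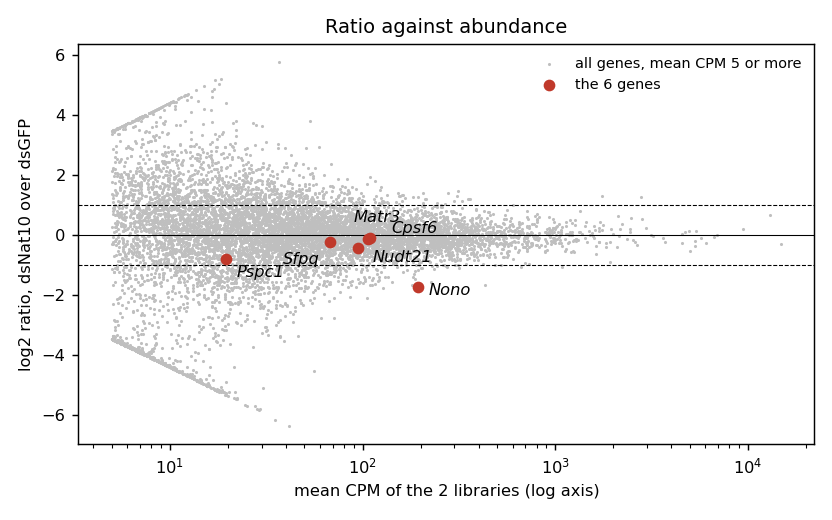
Log2 ratio of dsNat10 over dsGFP (CPM + 1) against the mean CPM of the 2 libraries on a log axis, for 8738 genes (grey) and the 6 genes (red). Dashed lines mark a log2 ratio of 1 in size. Nono, at -1.74, lies below nearly all genes of its abundance, and the other 5 lie between -0.78 and -0.10.

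The other DBHS genes were lower by less. Pspc1 (Entrez gene 66645, chromosome 14, 56722441 to 56778318), which joins Nono and Sfpq in paraspeckles, gave 405 reads in the dsNat10 library and 724 in dsGFP. It was 1.77-fold lower (1.56 to 2.0), and its log2 ratio of -0.78 falls short of the size rule. Sfpq (Entrez gene 71514, chromosome 4, 127020716 to 127051101), a splicing and transcription cofactor, had 1775 reads against 2124. It was 1.18-fold lower (1.11 to 1.26). The counting intervals of the 3 ratios do not overlap, with Nono lowest, Pspc1 between and Sfpq nearest to 1. GENCODE lists 1 other transcribed locus, on the same strand, that overlaps Sfpq.

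The make-up of the DBHS family differed between the libraries. Levels of different genes are compared here in TPM. In dsGFP the 3 genes summed to 234.1 TPM, of which Nono gave 79.5%, Sfpq 13.6% and Pspc1 6.90%. In dsNat10 they summed to 94.8 TPM, of which Nono gave 60.6%, Sfpq 29.4% and Pspc1 10.03%. Sfpq (27.9 TPM against 31.8) and Pspc1 (9.51 against 16.2) were themselves lower in dsNat10. Their larger shares therefore restate the lower level of Nono. Nono thus had 5.86 times the TPM of Sfpq in dsGFP and 2.06 times in dsNat10. Sfpq had 1.97 times the TPM of Pspc1 in dsGFP and 2.93 times in dsNat10. Nono was the most abundant of the family in both libraries, but by less in dsNat10.

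Among the 2 subunits of cleavage factor Im in the set, Nudt21 differed more. Nudt21 (Entrez gene 68219, chromosome 8, 94019403 to 94037039), the subunit that recognises the RNA sequence UGUA, gave 2308 reads in the dsNat10 library and 3134 in dsGFP. It was 1.34-fold lower (1.27 to 1.42). Cpsf6 (Entrez gene 432508, chromosome 10, 117344667 to 117376998), the larger partner that Nudt21 binds, had 3001 reads against 3247, or 1.07-fold lower (1.02 to 1.13). Nudt21 had 5.28 times the TPM of Cpsf6 in dsNat10 and 6.69 times in dsGFP. Cpsf7, the alternative large subunit, which is not of the set, went the other way with 1154 reads against 459, 2.54-fold higher (2.28 to 2.84), past the size rule. By TPM, Cpsf7 stood at 17.4 in dsNat10 and 6.67 in dsGFP, below Cpsf6 in both.

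Matr3 (Entrez gene 17184, chromosome 18, 35562158 to 35592045) gave 2929 reads in the dsNat10 library and 3215 in dsGFP, and was 1.09-fold lower (1.03 to 1.14). GENCODE lists 3 other genes that overlap it, 1 of them antisense, and the library kit does not mark strand.

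By TPM, the order in dsGFP was Nono (186.2), Nudt21 (166.5), Matr3 (36.8), Sfpq (31.8), Cpsf6 (24.9) and Pspc1 (16.2). In dsNat10 it was Nudt21 (128.8), Nono (57.4), Matr3 (35.3), Sfpq (27.9), Cpsf6 (24.4) and Pspc1 (9.51). Nono and Nudt21 exchanged the first place, and the other 4 genes kept their order. In each library the counting intervals of neighbours in the order do not overlap, although the spread between embryo pools is unknown. Summed over the 6 genes the level was 283.3 TPM in dsNat10 and 462.3 TPM in dsGFP, and without Nono it was 225.8 and 276.1 TPM.

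**Figure D2:**
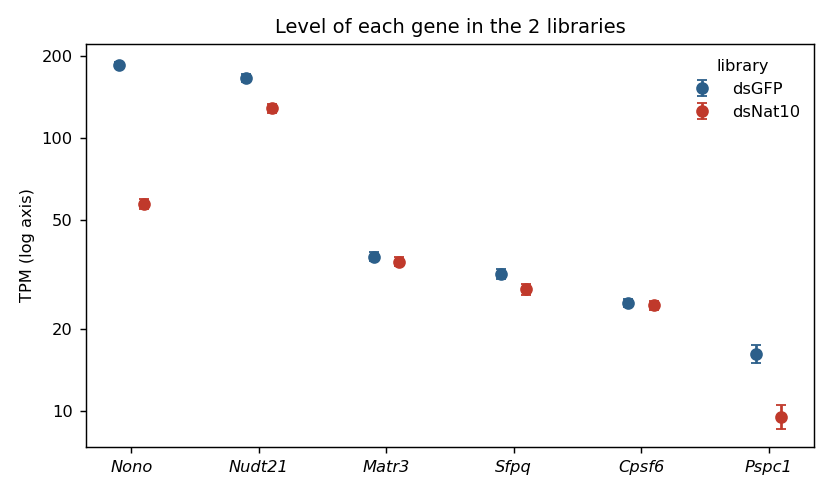
Level of each gene in TPM on a log axis, in the dsGFP (blue) and dsNat10 (red) library. Whiskers are exact 95% Poisson intervals of the read counts and cover counting error only. Nono stood at 186.2 TPM in dsGFP and 57.4 TPM in dsNat10, while Matr3 and Cpsf6 were nearly level.

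The DBHS ratios are set here beside the runs of CNN shown above, whose part in them was not tested. Sfpq has the longer run and was 1.18-fold lower, while Nono was 3.38-fold lower and Pspc1, with a run near the median, 1.77-fold lower. Among all genes with a run of 20 triplets or more, 67 passed the filter, and their median log2 ratio was 0.22. The size rule called 7 of them lower (10.4%) and 11 higher (16.4%). Among the 8408 genes with a shorter longest run the median was 0.01, with 15.3% lower and 15.2% higher. Of the genes with such long runs, 12 averaged at least 100 CPM, and of these Nono was the 1 lower gene (8.33%) and 3 were higher (25.0%). At that abundance the genes with shorter runs had 2.53% lower and 2.19% higher. The 8.33% is Nono alone, whose low value was known beforehand, so it is no separate result. The limit of 20 triplets takes in both Nono and Sfpq.

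**Figure D3:**
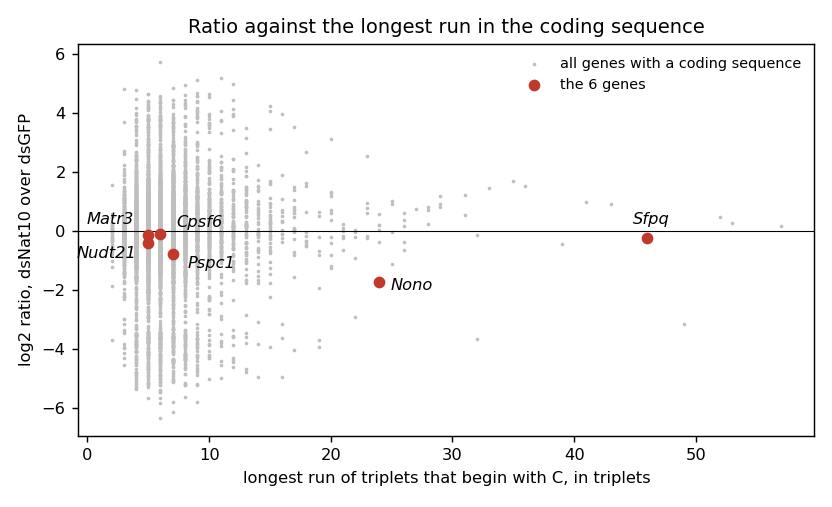
Log2 ratio of dsNat10 over dsGFP against the longest run of triplets that begin with C in the coding sequence, for 8475 genes (grey) and the 6 genes (red). Nono and Sfpq, with runs of 24 and 46 triplets, lie far to the right at ratios of -1.74 and -0.24.

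Promoter windows from RefSeq (GRCm38.p6, 250 bases before to 50 after each start) were set side by side because all 6 ratios lay below 0. Windows of 5 of the 6 genes were searched, and Matr3 was left out of the search. The letters CGCCAT, the core of the site of the transcription factor YY1, or ATGGCG on the other strand, were present in all 5 windows, which are shown with the match in capitals. Over 7116 genes that passed the filter, with 1 window each, 17.7% held it, and so did 8.93% of all 32851 windows. The motif was picked after the windows had been read, so no weight can be given to the count. The windows printed are chrX:101429551-101429572 (Nono, plus strand), chr4:127021325-127021346 (Sfpq, plus strand), chr14:56778304-56778325 (Pspc1, minus strand), chr10:117377143-117377164 (Cpsf6, minus strand) and chr8:94036990-94037008 (Nudt21, minus strand). Pspc1 holds a second match further upstream, which is not printed.
Nono: gttaagaaATGGCGgactaatg
Sfpq: gtgtcgtcCGCCATtttgtgct
Pspc1: tgaagcagCGCCATtttgagcg
Cpsf6: catgcggtATGGCGgggtagca
Nudt21: gactgttaATGGCGggtgg

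Of the other motifs searched on both strands, CCAAT was present in 4 of the 5 windows (39.8% of genes) and GGGCGG, the GC box, in 2 (65.3%). GCATGCGC, the NRF1 core, was present in the window of Nono alone (6.39% of genes). CTTCCGG, the ETS core, was present in that of Nudt21 alone (21.9%), and TGACGT, part of the cAMP response element, in that of Cpsf6 alone (13.0%). In the window of Sfpq a CCAAT match and one on the other strand (ATTGG) share 2 bases, and no other matches overlap. A match describes letters only.

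Other proteins of the paraspeckle differed in both directions, with a median near 0. Of 31 listed genes, Neat1, Taf15 and Zc3h6 were not analysed here, 28 were in the table and 26 passed the filter, of which the size rule called 4 lower and 1 higher, against backgrounds of 15.3% and 15.2%. Their median log2 ratio was -0.08, and 15 of 26 lay below 0. Hnrnph1, a splicing regulator, had 925 reads in dsNat10 and 2943 in dsGFP and was 3.15-fold lower (2.92 to 3.39). Zfp24, a zinc finger transcription factor, had 264 against 840, also 3.15-fold lower (2.74 to 3.63). Rbm14, an RNA-binding protein that paraspeckles need, had 108 reads against 3143, and Rbm4b had 2 against 320. Both have fractional counts and are uncertain. The gene that was higher is Cpsf7, described above.

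The most abundant genes of that list differed little. Hnrnpa1 stood at 1648 TPM in dsNat10 and 1342 TPM in dsGFP, 1.18-fold higher by CPM (1.16 to 1.19). Hnrnpk, which can keep cleavage factor Im from the internal poly(A) site of Neat1, stood at 851 and 881 TPM, 1.08-fold lower (1.06 to 1.09).

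**Figure D4:**
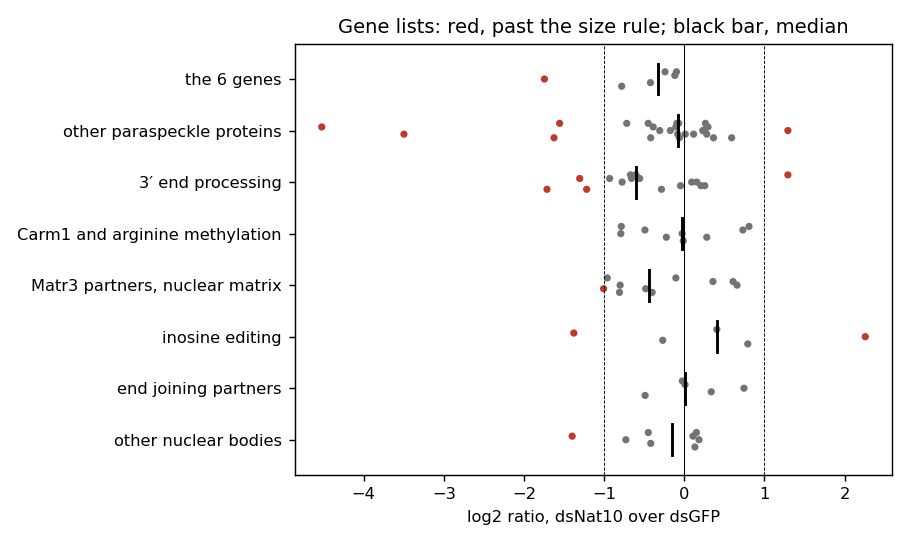
Log2 ratio of dsNat10 over dsGFP for each gene that passed the filter, by list, with genes past the size rule in red, the list's median as a black bar and dashed lines at 1 in size. The median is -0.33 for the 6 genes, -0.08 for other paraspeckle proteins and -0.60 for 3′ end processing.

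The machinery of 3′ end processing, in which Cpsf6 and Nudt21 work, had a low median. Of 18 genes, all in the table, 17 passed the filter, 12 lay below 0, and the median log2 ratio was -0.60 against 0.01 over all genes. It was -0.39 in deposited TPM and -0.30 in FPKM, where the filter's cut was taken in that unit and left out more genes. By the size rule 3 were lower (background 15.3%) and Cpsf7 was higher. Pcf11, which helps to end transcription, had 241 reads against 864, a level 3.55-fold lower (3.07 to 4.11). Cstf3, a scaffold of the cleavage stimulation factor, had 350 against 861, or 2.43-fold lower (2.15 to 2.76). Wdr33, which binds the poly(A) signal, had 777 against 1982 reads, 2.52-fold lower (2.32 to 2.75), but 21.9 against 27.5 TPM, since the deposited values give it different lengths in the libraries. Cpsf3, the endonuclease, stood at 279 and 234 TPM (1.16-fold higher by CPM, 1.13 to 1.19), and the poly(A) polymerase Papola at 163 and 146 TPM (1.07-fold higher, 1.04 to 1.09). The gene that did not pass, Sympk, had 0 reads against 250.

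Carm1 had 527 reads in dsNat10 and 939 in dsGFP, or 1.76-fold lower (1.58 to 1.97). Its counts were fractional, so the value is uncertain, and the ratio is short of the size rule. Of 11 genes listed for Carm1 and arginine methylation, which are not all methyltransferases, 9 passed the filter. The size rule called 0 of them, where 15.3% of all genes were lower and 15.2% higher. Their median log2 ratio was -0.03. With no filter the median was -0.22, since the other 2 genes, Prmt2 (0 reads against 208) and Prdm14 (0 against 50), were then counted. Prmt1 stood at 284 TPM in dsNat10 and 278 TPM in dsGFP, and Prmt5 at 274 and 266 TPM. Of 6 lineage genes tied to this pathway, 4 passed and all 4 lay below 0 (49.5% of all genes), with 3 lower by the size rule (15.3% of all genes). Nanog (156 and 469 TPM, fractional), Cdx2 (2.90 and 12.6 TPM) and Klf4 (4.37 and 11.0 TPM) were the lower ones, and Pou5f1 stood at 198 and 315 TPM. Sox21 had 1 read against 56.

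Partners of Matr3 and of the nuclear matrix had a median of -0.44 over 10 genes, which became 0.13 at a mean of 50 CPM or more. Sltm, a relative of the scaffold factors Safb and Safb2, was the 1 gene that met the size rule, where 15.3% of all genes were lower. It had 291 reads against 620 (2.11-fold lower, 1.83 to 2.43). Ptbp1, a splicing repressor, stood at 91.3 and 123 TPM with fractional counts.

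Among 5 genes for inosine in RNA, Adar, which edits double-stranded RNA, had 636 reads in dsNat10 and 478 in dsGFP and was 1.34-fold higher (1.19 to 1.52). Adat3, a tRNA deaminase subunit, had 359 against 443. Adat2 (1859 against 370) was higher and Adat1 (185 against 532) lower by the size rule, and Endov had 1330 against 764, all 3 with fractional counts. The DNA end joining genes that Nono and Sfpq work with had 0 of 5 past the rule. Over all genes that passed the filter, the background for both lists, 15.3% were lower and 15.2% higher. Xrcc5 had 932 reads against 740, Xrcc6 1070 against 1529, Prkdc 336 against 337, Xrcc4 714 against 419 and Nhej1 235 against 242.

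Of 10 genes of other nuclear bodies, 8 passed, and the median of -0.16 turned to 0.16 in TPM and 0.12 in FPKM, and was -0.42 at a mean of at least 50 CPM. These alternatives do not cover the same genes, since the filter's cut for TPM and FPKM was taken in that unit. Pml, the scaffold of its own bodies, was the 1 gene past the size rule, where 15.3% of all genes were lower. It had 117 reads against 359 (3.04-fold lower, 2.46 to 3.77). Smn1, of the gems next to Cajal bodies, stood at 200.4 and 320 TPM, and the speckle protein Srrm1 at 37.2 and 32.3 TPM.

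Nono is X-linked, and the labels do not give the sex of the pooled embryos. The 288 X-linked genes that passed the filter had a median log2 ratio of 0.08, and 8423 autosomal genes had 0.01. By the size rule, 17.0% of these X-linked and 15.1% of these autosomal genes were lower. Among genes averaging at least 100 CPM, 3 of 53 X-linked genes, Nono among them, were lower (5.66%) and 51 of 2060 autosomal genes (2.48%). Y-linked genes went different ways, with 411 reads of Ddx3y in dsNat10 against 588 in dsGFP, 193 of Eif2s3y against 640, and 685 of Kdm5d against 0. Uty, with fractional counts, had 258 against 305, Usp9y 73 against 18, Zfy1 0 against 4 and Zfy2 0 against 13. The part of the sex of the embryos in the ratio of Nono was not tested.

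Among 1353 genes with whole counts and a mean CPM within a factor of 2 of that of Nono, none had a ratio as low. Plp2 (log2 ratio -2.09) and Rbpj (-1.75) lie in the same range of CPM and were as low, but their fractional counts left them out. Of the 1353 genes, the nearest by log2 ratio were Knop1 (0.09 away), the spliceosome GTPase Eftud2 (0.10), the secreted stress protein Manf (0.12) and the glucose transporter Slc2a1 (0.14). This likeness is over 2 libraries only, so each gene has a single ratio.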

How the data were processed

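Polyadenylated RNA of 2 morula libraries was measured. Per the labels, libraries followed SMART-seq2. Per the submitters' processing notes, reads were handled with Trim Galore, HISAT (GRCm38) and HTSeq; their versions were not stated in the labels. The authors deposited estimated counts, 23.2% of genes being fractional in a library, and TPM and FPKM values that divide by length and library total. HTSeq usually counts whole reads, so which program made the fractional values is not known here. Estimated counts were rounded and scaled by TMM in edgeR 4.0.16 (R 4.3.3), which shifted log2 ratios by -0.03. The filter was a mean of 5 CPM and the pseudocount 1. Intervals are exact (Clopper-Pearson for ratios) and cover counting error of reads, which are PCR copies without molecular identifiers. With 1 library a group, no p-value was computed. The size rule was tested on simulated data that held counting error only, so the spread between embryo pools was not covered. Coordinates came from RefSeq GRCm38.p6, matched for 12800 genes.

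The genes and lists were chosen with earlier results of these data known. From each list the text names genes past the size rule, the 2 most abundant by TPM, and, of lists under 10 genes, all members in the table. It also names the 4 genes most like Nono, leaving out predicted genes and Rik clones. Sympk, Prmt2 and Prdm14 were named after its values were seen. Alternatives were plain totals, DESeq2 1.42.0 size factors, TPM, FPKM, pseudocounts of 0.1 and 5, other filters, a lower limit, and unrounded counts. For list medians in TPM and FPKM the filter's cut was taken in that unit, so the genes covered can differ.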

Additional observations from a re-analysis of the deposited data

How the results depend on the processing

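Of 198 values recomputed under 10 alternatives, 171 stayed within set limits and 27 moved further. The limits were counting error for ratios, 1.5 times for counts and 0.1 on the log2 scale for medians. A change of sign was looked for only in the called gene of the set, Nono, and did not occur. Medians were not checked for sign. Those of the Matr3 partners, of other nuclear bodies, of the end joining genes and of all genes changed it under some alternatives. The median of all genes was 0.01, and -0.14 with no filter. The difference between X-linked and autosomal medians also changed sign, from 0.07 to -0.02 in FPKM and to -0.0004 with no filter. The log2 ratio of Nono ranged from -1.76 to -1.68, the latter in TPM, and stayed past the size rule in each alternative. The ranges for the others were -0.26 to -0.18 (Sfpq), -0.82 to -0.65 (Pspc1), -0.13 to -0.06 (Matr3), -0.11 to -0.03 (Cpsf6) and -0.44 to -0.37 (Nudt21). With a limit of 0.5 on the log2 ratio, 2 of the 6 genes were lower (Nono and Pspc1), against 26.5% of all genes. The median of the 3′ end processing list was -0.39 in TPM and -0.30 in FPKM. For these 2 units the filter's cut was taken in the unit itself, so the medians do not cover the same genes as in CPM. Pcf11, at 2.22 TPM in dsNat10 and 7.18 TPM in dsGFP, fell below the cut in TPM. What else moved the medians was not tested. No paired analysis was possible because each group has 1 library. The spread between replicates is unknown with 1 library a group.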

Other observations

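Dividing deposited reads by FPKM and by the library total returns the length, in bases, that the authors' values imply for a gene. For Nono it was 2284 in dsNat10 and 2283 in dsGFP, for Pspc1 2201 and 2199, for Sfpq 3289 and 3279, for Cpsf6 6357 and 6404, for Nudt21 926.2 and 923.8, and for Matr3 4287 and 4285. Among 7694 genes with 100 reads or more in each library, 8.11% had implied lengths that differed by over 10%, 329 shorter and 295 longer in dsNat10. Wdr33 was at 1829 and 3541 bases. None of the 6 genes was in that share.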
